A study of Mus musculus with 8 samples.

Results

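The 10 genes described here build and load major histocompatibility complex (MHC) class I molecules in the mouse: H2-K1, H2-D1, B2m, Tap1, Tap2, Tapbp, Psmb8, Psmb9, Psmb10 and Nlrc5. They were chosen by name for their role in the pathway, and all 10 were found among the 31053 genes of the deposited count tables. Their RNA was followed in 8 B16F10 tumours profiled by droplet-based single-cell RNA sequencing. B16F10 is a pigmented melanoma line of C57BL/6 origin that keeps its own Atf4 gene, and it was grown under the skin of the flank to about 300 mm3.

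The Atf4Δ/Δ hosts, 4 mice, carried loxP-flanked Atf4 that was removed from the whole body by a tamoxifen-inducible Cre recombinase (Rosa26::CreERT2), and the Atf4WT/WT hosts, also 4 mice, carried the same Cre and received tamoxifen as well. Mice were 12 weeks old, with 2 males and 2 females in the Atf4WT/WT group and 3 males and 1 female in the Atf4Δ/Δ group. The deletion was not limited to a cell type of the host, and the tumour cells themselves were the same in both groups. Tumours are named by host genotype and replicate.

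Class I molecules show short peptides from a cell's own proteins to CD8 T cells. The proteasome cuts proteins into peptides, the TAP pump moves these into the endoplasmic reticulum, and a loading complex places them on a heavy chain paired with beta-2 microglobulin. Interferon raises transcription of nearly every step, partly through the factor IRF1 and the coactivator NLRC5, and B16F10 cells are known for a low surface level of class I that interferon-gamma restores.

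H2-K1 (chr17:33996017-34000347, minus strand, build GRCm38) and H2-D1 (chr17:35262730-35267499, plus strand) encode the classical heavy chains, and B2m (chr2:122147686-122153083, plus strand) encodes their light chain. Tap1 (chr17:34187553-34197225, plus strand) and Tap2 (chr17:34203527-34216321, plus strand) encode the peptide pump, and Tapbp (chr17:33915899-33929292, plus strand) encodes tapasin, which bridges pump and heavy chain. Psmb8 (chr17:34197721-34201454, plus strand), Psmb9 (chr17:34181987-34187764, minus strand) and Psmb10 (chr8:105935735-105938444, minus strand) encode the immunoproteasome subunits that replace Psmb5, Psmb6 and Psmb7 at the catalytic sites. Nlrc5 (chr8:94434356-94527272, plus strand) encodes the class I transactivator. Psmb9, Tap1, Psmb8 and Tap2 lie within 34335 bases of each other, and the Psmb9 and Tap1 genes overlap by 212 bases on opposite strands, at their starts. Counting took the 3′ ends of transcripts, and within the last 500 bases of the members no stretch of 98 bases was shared with another gene.

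The promoters of 4 members are printed as examples, those of the heavy chains, of B2m and of Tap1. Like the other members, these were high in the interferon cluster described below. Each runs from 250 bases before to 50 after the start given by RefSeq for GRCm38.p6, on the strand of its gene. Of 6 motifs searched on both strands, capitals mark 4. These are an 11-letter kappaB motif, which NF-kappaB is known to bind (the first capitals of H2-K1 and of H2-D1), and the interferon-stimulated response element, GAAA repeated after 2 free bases (the first capitals of B2m). A response element with 1 A fewer, GAANNGAAA with N for any base, and TGACG, a core bound by CREB and ATF proteins, are the others in capitals. The interferon-gamma-activated site TTCNNNGAA and the CCAAT box were searched as well and are not marked.
H2-K1, chr17:34000298-34000597, minus strand: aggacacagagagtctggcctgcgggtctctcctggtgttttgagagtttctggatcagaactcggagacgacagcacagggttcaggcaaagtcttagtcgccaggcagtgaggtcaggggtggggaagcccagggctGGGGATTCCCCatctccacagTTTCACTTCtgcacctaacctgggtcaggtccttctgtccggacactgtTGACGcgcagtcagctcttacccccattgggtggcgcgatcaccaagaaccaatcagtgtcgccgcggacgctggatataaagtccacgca
H2-D1, chr17:35262844-35263143, plus strand: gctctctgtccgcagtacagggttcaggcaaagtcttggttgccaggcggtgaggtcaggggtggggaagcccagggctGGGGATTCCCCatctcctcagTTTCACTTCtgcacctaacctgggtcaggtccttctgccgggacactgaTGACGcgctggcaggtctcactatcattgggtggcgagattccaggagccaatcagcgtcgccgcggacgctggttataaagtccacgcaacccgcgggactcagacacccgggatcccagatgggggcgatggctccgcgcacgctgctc
B2m, chr2:122147437-122147736, plus strand: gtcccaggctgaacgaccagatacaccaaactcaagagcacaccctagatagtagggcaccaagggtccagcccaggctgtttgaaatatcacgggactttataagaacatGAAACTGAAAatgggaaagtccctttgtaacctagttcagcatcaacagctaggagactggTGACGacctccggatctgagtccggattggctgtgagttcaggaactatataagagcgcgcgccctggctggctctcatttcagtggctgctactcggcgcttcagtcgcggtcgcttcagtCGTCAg
Tap1, chr17:34187306-34187605, plus strand: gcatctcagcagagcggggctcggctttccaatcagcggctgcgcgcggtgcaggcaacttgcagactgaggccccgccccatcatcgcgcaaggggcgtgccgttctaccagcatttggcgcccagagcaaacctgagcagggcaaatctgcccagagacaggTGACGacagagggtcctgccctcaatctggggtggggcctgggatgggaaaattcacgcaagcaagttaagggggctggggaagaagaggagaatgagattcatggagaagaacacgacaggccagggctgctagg

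The H2-K1 and H2-D1 promoters hold the same 3 marked motifs in the same order, the shorter response element on the reverse strand as TTTCACTTC. None of the searched motifs contains another. The kappaB motif begins 111 bases before the start of H2-K1 and 171 bases before that of H2-D1, and it occurs in 10 of 32851 promoters of the same length (0.0304%). Over 228 aligned positions the heavy-chain promoters were identical at 206 (90.4%). The B2m promoter holds the full response element (GAAACTGAAA, 139 bases before the start), found in 3.44% of promoters, and the shorter form is found in 7.52%. TGACG is common, in 20.8% of promoters, and stands in those of B2m, H2-D1, H2-K1, Psmb9 and Tap1, where the Psmb9 and Tap1 windows share 275 bases. CCAAT stands in 37.4% of promoters and in those of 6 members, H2-K1, H2-D1, B2m and Tap1 among them, and TTCNNNGAA in 8.3% and in that of Psmb8. RefSeq windows were matched for 8 of the 10 members, all but Tap2 and Nlrc5. These matches describe letters in a window and were not tested as binding sites.

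Of 28411 cells kept, 23702 were melanoma-like by Dct, Mlana, Pmel and other pigment-cell markers, in 10 clusters. The host cells were few: 730 fibroblast-like cells led by Col3a1 and Col1a1 (cancer-associated fibroblasts, CAFs), 288 macrophage-like cells with C1qa and Ms4a7, of which 76 were led by cell cycle genes (tumour-associated macrophages, TAMs), 94 T/NK-like cells, 40 dendritic-like cells and 38 endothelial-like cells. A further 246 immune cells led by Chil3 and Ly6c2, 188 led by Arg1 and Mmp12 and 42 led by Wdfy4 and MHC class II genes were left without a name, as were 2803 cells of low RNA content. The 10 members took no part in forming these clusters. Library totals ran from 37283598 to 74942137 unique molecular identifiers (UMIs, counted transcripts), with a median of 7848 to 11054.5 a cell by tumour. Only 96 of 28315 cell barcodes (0.339%) were shared between libraries. The deletion was visible in CAF-like cells, where Atf4 stood at 95.2 to 171.5 counts per 1000000 UMIs of the class (CPM) in Atf4Δ/Δ hosts and 277.7 to 323.3 in Atf4WT/WT hosts, whereas melanoma-like cells held 262.1 to 442.3 CPM across both. Some Atf4 counts therefore remained in CAF-like cells of Atf4Δ/Δ hosts, whose sums also held melanoma RNA, as given below.

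Melanoma-like cells held less RNA of 9 members than the fibroblasts around them and less of all 10 than TAM-like or T/NK-like cells, with the widest gap for the immunoproteasome subunit Psmb8. Psmb8 stood at 3.90 ± 4.02 CPM (SD, n = 8 tumours) in melanoma-like cells, 68.0 ± 25.7 (n = 8) in CAF-like cells, 215 ± 83.2 (n = 7) in TAM-like cells and 601 ± 212 (n = 5) in T/NK-like cells. No tumour had a Psmb8 level in its melanoma-like cells that reached that of its own CAF-like cells. B2m, the light chain shared by all class I molecules, stood at 226 ± 56.9, 624 ± 307, 1482 ± 454 and 2144 ± 518 CPM in the same order of classes.

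**Figure D1:**
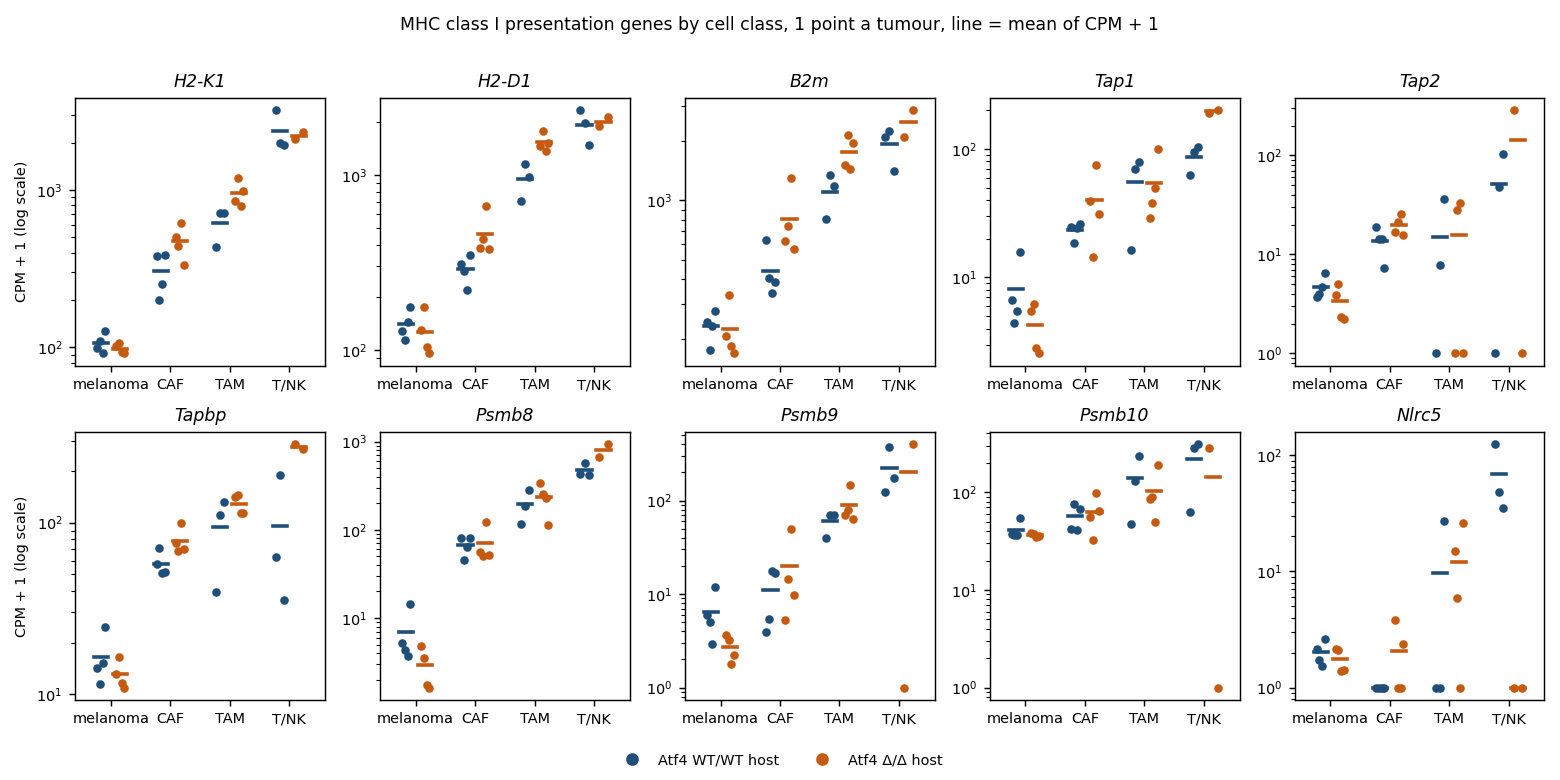
Level of each gene (CPM + 1, log axis) in melanoma-like, CAF-like, TAM-like and T/NK-like cells, with 1 point for each tumour that had at least 10 cells of the class and a line at the mean for each host genotype. Points at 1 are tumours with no UMI of the gene. For H2-K1 the melanoma-like points lie between 90.4 and 126 CPM and every CAF-like point lies above them, at 198 CPM or more.

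H2-K1 was steady across tumours in melanoma-like cells. Its levels in replicates 1 to 4 were 101, 106, 91.9 and 90.4 CPM in Atf4Δ/Δ hosts and 97.7, 109, 91.6 and 126 CPM in Atf4WT/WT hosts. In CAF-like cells they were 499, 437, 612 and 334 CPM, and 378, 198, 250 and 384 CPM. Every tumour thus had more H2-K1 in CAF-like than in melanoma-like cells. H2-D1 in melanoma-like cells was 128, 175, 103 and 94.3 CPM in Atf4Δ/Δ hosts and 127, 113, 144 and 174 CPM in Atf4WT/WT hosts. It was higher in the CAF-like cells of all 8 tumours, at 220 to 661 CPM.

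Tested over tumours, with the tumour as a block, 9 of 10 members were higher in CAF-like than in melanoma-like cells, against 28.5% of 13322 genes higher in that comparison (edgeR quasi-likelihood test, Benjamini-Hochberg adjusted p under 0.05). Psmb8 was higher by 4.42 ± 0.30 on the log2 scale (SE, adjusted p = 3.38e-14). The pump genes Tap1 and Tap2 were higher by 2.72 ± 0.33 and 2.55 ± 0.32, and Tapbp by 2.41 ± 0.18. H2-K1, Psmb9, H2-D1 and B2m followed with 1.95 ± 0.12, 1.85 ± 0.42, 1.52 ± 0.12 and 1.44 ± 0.13. Psmb10 differed least among those that passed, by 0.64 ± 0.14 (adjusted p = 0.000348). Nlrc5 did not pass (0.40 ± 0.78, adjusted p = 0.686): CAF-like cells held 4 UMIs of it in all, 2 each in replicates 1 and 4 of Atf4Δ/Δ hosts. The median difference of the members was 1.90, and that of all genes tested −0.07.

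TAM-like cells were compared with melanoma-like cells in 7 tumours, since replicate 2 of the Atf4WT/WT hosts held 2 TAM-like cells. All 10 members were higher, against 15.3% of 12455 genes. The class comparisons share their melanoma-like sums. Psmb8 and Psmb9 led with 5.997 ± 0.24 and 4.59 ± 0.32, followed by Tap1 (3.22 ± 0.33), H2-D1 (3.16 ± 0.12), Nlrc5 (3.02 ± 0.73), H2-K1 (2.91 ± 0.13), Tapbp (2.90 ± 0.23), B2m (2.57 ± 0.12), Tap2 (2.18 ± 0.50) and Psmb10 (1.503 ± 0.21). The largest adjusted p was 0.000202 (edgeR). Nlrc5 rested on 8 UMIs, with none in replicates 1 and 3 of the Atf4WT/WT hosts or replicate 3 of the Atf4Δ/Δ hosts. By CPM, Tap2 was higher in TAM-like than in melanoma-like cells in 4 of 7 tumours. The TAM-like cells of replicate 1 of the Atf4WT/WT hosts and of replicates 1 and 4 of the Atf4Δ/Δ hosts had no Tap2 UMI. Without replicate 2 of the Atf4Δ/Δ hosts, which gave 124 of the 288 TAM-like cells, Tap2 no longer passed (adjusted p = 0.0639).

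For T/NK-like cells the comparison rested on 5 tumours with 10 to 21 of them each. Again all 10 members were higher, against 4.03% of 11908 genes: Psmb8 by 6.50 ± 0.41, Psmb9 by 5.13 ± 0.57, Nlrc5 by 4.65 ± 1.23, H2-K1 by 3.71 ± 0.23 and B2m by 2.45 ± 0.21, with a largest adjusted p of 0.00361 (edgeR). The direction of the other calls moved with the normalization. Genes higher and lower were 480 and 1706 here, 682 and 215 with DESeq2, and 631 and 328 with library size scaling. All 10 members were higher in each. Nlrc5 rested on 4 UMIs in 3 Atf4WT/WT hosts, and with cells of at most 5% mitochondrial UMIs only 6 of 10 members passed. Single tumours decided some calls: Tap2 did not pass without replicate 1 of the Atf4Δ/Δ hosts (adjusted p = 0.0736), Nlrc5 did not without replicate 1 of the Atf4WT/WT hosts (adjusted p = 0.124), and Psmb10 did not without their replicate 3 (adjusted p = 0.0915) or 4 (adjusted p = 0.1602). H2-K1 in T/NK-like cells stood at 1924 to 3213 CPM, above the TAM-like cells of every tumour that had both.

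The order of the named classes was melanoma-like, CAF-like, TAM-like and T/NK-like from low to high for 8 of 10 members by their means. Tap2 was close to level between CAF-like (15.7 ± 5.39 CPM) and TAM-like cells (14.5 ± 16.3), and Nlrc5 had too few UMIs in CAF-like cells to be placed. Neighbours in this order did not always separate. TAM-like exceeded CAF-like cells in all 7 tumours for H2-K1, H2-D1 and Psmb9, but in 4 of 7 for Tap1 and in 6 of 7 for Tapbp. Unnamed immune cells had higher means than T/NK-like cells for some members. The cells led by Arg1 held 2530 CPM of B2m and those led by Chil3 2269 of H2-D1. The cells led by Wdfy4 held 1283 CPM of Psmb8 (n = 2, replicates 2 and 4 of the Atf4Δ/Δ hosts). Among classes with at least 10 cells in a tumour, their means were also highest for Psmb9, Tap1, Tap2 and Tapbp. In replicate 4 of the Atf4Δ/Δ hosts, which had both classes, Psmb9 was 399.6 CPM in T/NK-like cells and 396.7 in the cells led by Wdfy4. By their means, T/NK-like cells stood above all unnamed immune cells for H2-K1, Psmb10 and Nlrc5. For Psmb10 the means were close, 188 CPM against 183 in the cells led by Chil3, which T/NK-like cells exceeded in 3 of 5 tumours. For Nlrc5 they exceeded the cells led by Arg1 in 2 of 5. In cells pooled over tumours, too few for a test, the dendritic-like class held 3523 CPM of B2m, 3231 of H2-D1, 3173 of H2-K1 and 1479 of Psmb8, from 51378 UMIs in all. Endothelial-like cells held 1027, 902, 565 and 154 CPM of the same genes, from 136291 UMIs.

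The constitutive proteasome subunits did not follow the immunoproteasome. In CAF-like cells Psmb5, Psmb6 and Psmb7 were lower than in melanoma-like cells, by −0.61 ± 0.10, −0.40 ± 0.09 and −0.52 ± 0.11 on the log2 scale (adjusted p = 2.25e-06, 0.000464 and 0.000146, edgeR). In TAM-like cells Psmb6 was higher (0.42 ± 0.13, adjusted p = 0.00553), while Psmb5 (−0.34 ± 0.14, adjusted p = 0.0527) and Psmb7 (−0.27 ± 0.16, adjusted p = 0.199) did not pass. Psmb6 lost its call without replicate 2 of the Atf4Δ/Δ hosts (adjusted p = 0.0778) and at 5% mitochondrial UMIs (0.30, adjusted p = 0.193), and Psmb5 passed without cells rich in melanoma markers (−0.43, adjusted p = 0.00964). In T/NK-like cells Psmb5 (−1.44 ± 0.35, adjusted p = 0.000647) and Psmb7 (−1.19 ± 0.44, adjusted p = 0.0400) were lower and Psmb6 did not pass (−0.69 ± 0.31, adjusted p = 0.104). The median difference of all genes tested was −0.30 in TAM-like and −1.53 in T/NK-like cells. In T/NK-like cells both Psmb5 and Psmb7 thus lay above the median gene. Neither Psmb5 nor Psmb7 passed with DESeq2 (−0.76 and −0.67), with library size scaling or at 5% mitochondrial UMIs, and Psmb7 did not pass without replicate 1 or 4 of the Atf4Δ/Δ hosts or 3 or 4 of the Atf4WT/WT hosts (−0.85 to −1.39).

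Of 29 further genes of the pathway, 18 were higher and 4 lower in CAF-like cells, 18 of 27 tested higher and 2 lower in TAM-like cells, and 11 of 27 higher and 5 lower in T/NK-like cells. Of all genes tested, 27.4%, 20.5% and 14.3% were lower in these classes. The interferon regulatory factor Irf1 was higher by 1.63 ± 0.31, 1.40 ± 0.43 and 2.53 ± 0.83. In TAM-like cells 14 of 20 Irf1 UMIs came from replicate 2 of the Atf4Δ/Δ hosts, without which it did not pass (0.55, adjusted p = 0.597), nor did it with DESeq2 (adjusted p = 0.113). In T/NK-like cells Irf1 did not pass without replicate 1 (2.21, adjusted p = 0.206) or 4 (2.06, adjusted p = 0.217) of the Atf4Δ/Δ hosts, without replicate 1 of the Atf4WT/WT hosts (2.45, adjusted p = 0.0843) or at 5% mitochondrial UMIs (adjusted p = 0.310). The non-classical class I gene H2-T23 was higher by 3.64 ± 0.24, 3.56 ± 0.32 and 4.62 ± 0.58. A second non-classical gene, H2-Q7, was named after its values were seen, and its reads may be split with close relatives of the H2-Q group. It had 23 UMIs in all melanoma-like cells and 183 in CAF-like cells, or 0.0943 ± 0.0659 against 45.2 ± 14.2 CPM (SD, n = 8).

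Free RNA moves between droplets, so the same comparison was made for genes of one side only. Median levels in melanoma-like cells, as a percentage of the level in host cells of the same tumour, were 0.0326% for Col1a1 against CAF-like cells, 0.0407% for Lyz2 and 0.0836% for Ptprc against TAM-like cells. For the members they were 26.5% for H2-K1, 40.5% for B2m and 5.12% for Psmb8 against CAF-like cells. In the other direction, the melanoma gene Dct stood in CAF-like cells at a median of 19.3% of its melanoma level (6.72 to 32.0%) and in TAM-like cells at 28.5% (6.49 to 67.6%). Host sums therefore held melanoma RNA, which has lower levels of 9 members than CAF-like cells.

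With every cell thinned to 2000 UMIs, B2m was seen in 33.6% of melanoma-like, 63.4% of CAF-like and 91.3% of TAM-like cells, from 23575, 647 and 218 cells deep enough. Without thinning, at median depths of 10308.5, 4581 and 2903 UMIs, the shares were 79.5%, 84.1% and 95.1%. H2-D1 and H2-K1 were seen in 21.9% and 17.9% of thinned melanoma-like cells, Psmb10 in 6.46%, Tapbp in 2.77% and Tap1 in 1.01%. Tap2 (0.632%), Psmb9 (0.628%), Psmb8 (0.615%) and Nlrc5 (0.165%) were at or below the share of the fibroblast gene Col1a1 in the same cells (0.806%), a gene that melanoma cells should lack. Col3a1, another such gene, was seen in 1.10%, above Tap1 as well, so these 5 shares alone are not read as expression. Median levels relative to CAF-like cells of the same tumour were 5.12% for Psmb8, 19.2% for Tap1 and Tap2 and 39.5% for Psmb9. For Col3a1 the value was 0.0384%. The source of these counts was not tested.

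Within the melanoma, 1 cluster had the highest level of all 10 members once UMIs were summed over tumours. It held 819 of the 23702 melanoma-like cells (3.46%), was led by the interferon-induced genes Ifit1, Ifit3, Rsad2 and Cxcl10, and is called the interferon cluster below. Summed over tumours it held 682 CPM of B2m, 341 of H2-D1, 265 of H2-K1, 113 of Psmb10, 67.6 of Tapbp, 56.0 of Tap1, 53.0 of Psmb8, 46.2 of Psmb9, 20.1 of Tap2 and 6.24 of Nlrc5, in each case the highest of the 10 clusters. Because clusters were formed from genes of the same cells, these values describe the clusters and are given without a test.

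**Figure D2:**
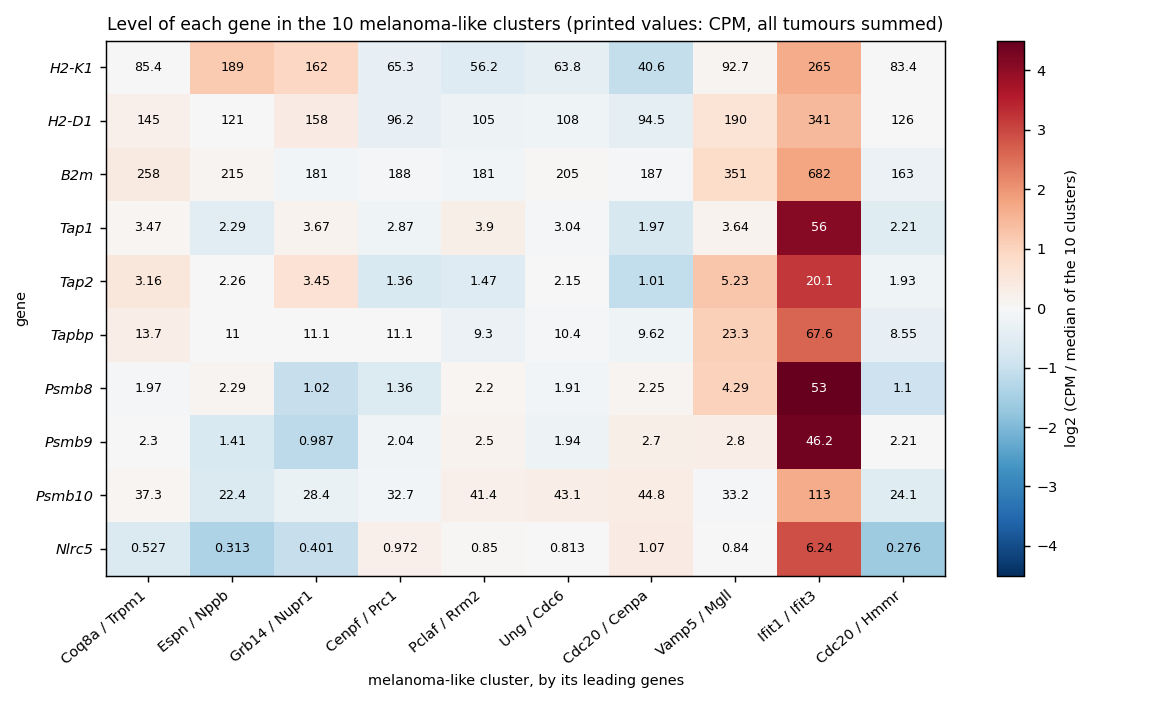
Each of the 10 genes (rows) in the 10 melanoma-like clusters (columns, by leading genes), with the CPM printed and colour for its log2 ratio to the median of the 10 clusters. The column led by Ifit1 and Ifit3 is the highest for every gene, and the column led by Vamp5 and Mgll is next for B2m at 351 CPM.

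Outside that cluster the members did not share one order. H2-K1 was next highest at 189 CPM in the cluster led by Espn, Nppb and the hypoxia gene Car9, and 162 CPM in that led by Grb14, Nupr1 and Ddit3, genes of the stress response. It was lowest, 40.6 CPM, in the larger of the mitotic clusters led by Cdc20 (1716 cells). By tumour these clusters spanned 167 to 208, 140 to 190 and 25.6 to 56.9 CPM, so that the last did not overlap the others. The interferon cluster spanned 138 to 441 CPM of H2-K1 by tumour and so overlapped the Car9 and Grb14 clusters. Nlrc5 in the interferon cluster ran from 0 to 14.7 CPM by tumour. B2m instead was next highest in the cluster led by Vamp5 (351 CPM, 266 to 424 by tumour), as were H2-D1 (190 CPM), Tapbp (23.3), Tap2 (5.23), Psmb8 (4.29) and Psmb9 (2.80). Psmb10 was 41.4 and 43.1 CPM in the clusters led by S-phase genes and 44.8 CPM in the larger Cdc20 cluster, where H2-K1 was low, but 22.4 CPM in the Car9 cluster, where H2-K1 was high, and 24.1 CPM in the smaller Cdc20 cluster.

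The interferon cluster was compared with the other melanoma-like cells tumour by tumour. Psmb8 stood at 38.4, 19.4, 15.6 and 7.58 CPM in the interferon cluster of Atf4Δ/Δ hosts and at 47.8, 93.9, 23.9 and 104 CPM in that of Atf4WT/WT hosts, replicates 1 to 4. In the remaining melanoma-like cells it was 3.25, 1.60, 0.435 and 0.567 CPM, and 2.66, 1.33, 1.69 and 4.51 CPM. All 8 tumours had more Psmb8 inside the cluster, by a median of 16.1 times (11.8 to 70.5). The medians for Psmb9 and Tap1 were 20.4 times (4.96 to 45.5) and 13.8 times (6.47 to 28.7).

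The other members moved less. Tap2 was 7.15 times, Tapbp 5.68 times, Psmb10 3.08 times, B2m 3.05 times (1.82 to 4.64), H2-D1 2.45 times and H2-K1 1.91 times (1.38 to 4.61) the level of the remaining cells, each higher in 8 of 8 tumours. Nlrc5 was higher in 6 of 8. Psmb5, Psmb6 and Psmb7 were at 0.98, 0.93 and 0.99 times, and the pigment gene Dct at 0.98 times. Irf1 was 3.56 times as high. Of the host-only genes in the same cells, Col1a1 was 1.01 times as high (higher in 4 of 8 tumours) and Lyz2 1.46 times (5 of 8), at 4.21 and 6.83 CPM on average.

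**Figure D3:**
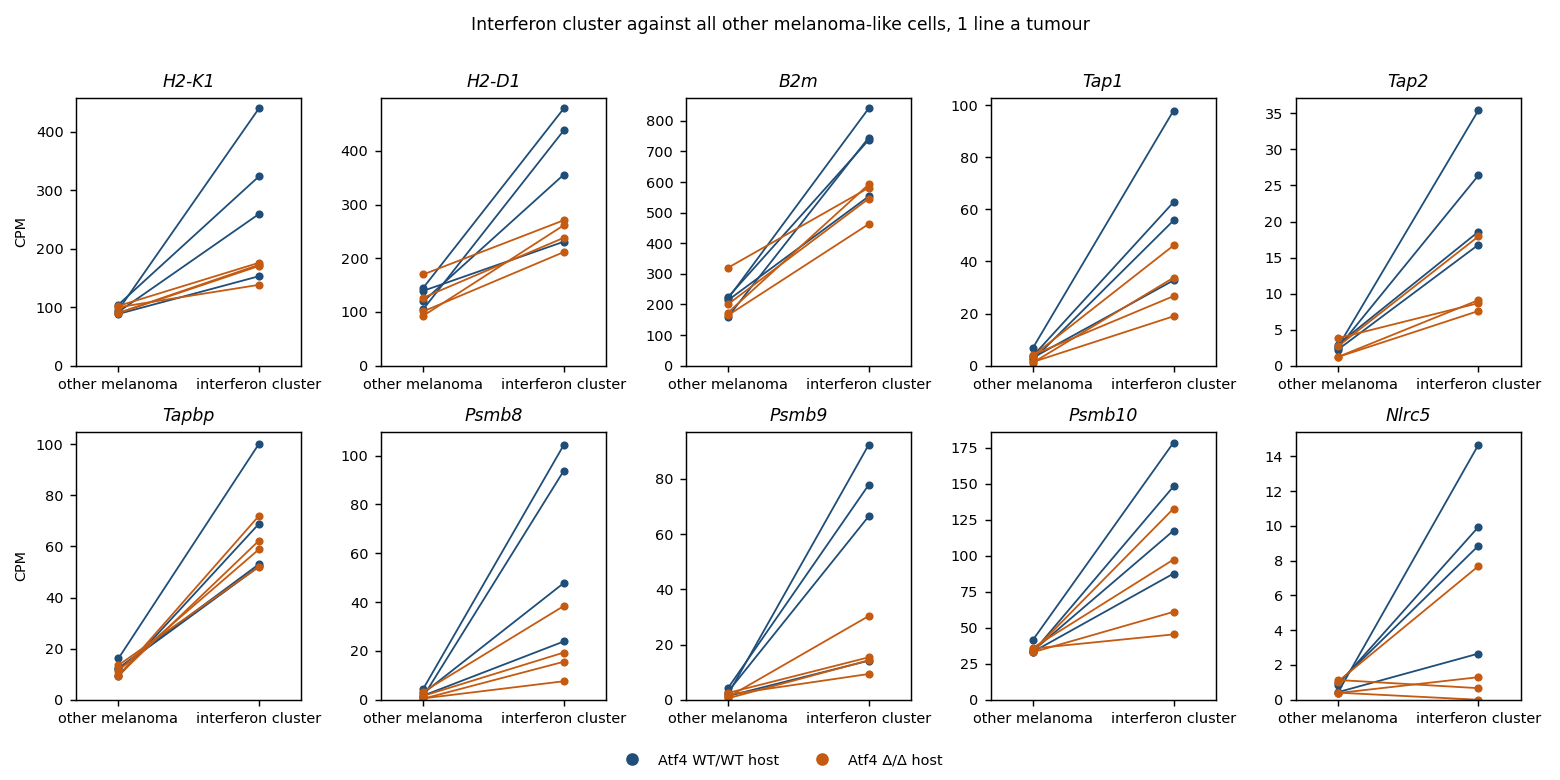
Level (CPM, linear axis from 0) of each gene in the interferon cluster and in all other melanoma-like cells, with 1 line for each tumour coloured by host genotype. Every line goes up for 9 of the genes; for Nlrc5 it goes up in 6 of 8 tumours, and the highest H2-K1 point is 441 CPM in replicate 4 of the Atf4WT/WT hosts.

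The small cluster carried much of some members' RNA in the melanoma. Summed over tumours, it gave 48.8% of all melanoma-like UMIs of Psmb8, 44.0% of Psmb9, 38.0% of Tap1, 23.6% of Nlrc5 and 23.2% of Tap2, but 8.70% of H2-K1 and of H2-D1 and 10.1% of B2m. Tumours weighed unequally in these sums. Melanoma-like cells of Atf4WT/WT hosts held 697 Psmb8 UMIs, 324 of them in replicate 4, and those of Atf4Δ/Δ hosts held 226. Shares of UMIs by tumour are not given. The interferon cluster also differed in size. Its share of melanoma-like cells was 1.58, 4.87, 2.12 and 0.761% in replicates 1 to 4 of Atf4Δ/Δ hosts and 3.17, 2.42, 4.78 and 8.84% in those of Atf4WT/WT hosts. The genotypes overlapped, and replicate 4 of the Atf4WT/WT hosts was the highest. That tumour also gave 19 of the 20 Ifng UMIs found in T/NK-like cells of tumours with at least 10 such cells (653 CPM, 17 cells), and the other, 66.6 CPM, came from replicate 4 of the Atf4Δ/Δ hosts. Whether Ifng and the size of the cluster are linked was not tested.

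By likeness over the 10 melanoma-like clusters, the genes closest to the mean z-score of the 10 members, among 7820 genes of at least 10 CPM on average, were Ifi35 (Pearson r = 0.990), Xaf1 (0.985), Gbp7 (0.985), Parp12 (0.984), Ifih1 (0.984), Bst2 (0.982), Igtp (0.982), Ifitm3 (0.980), Rtp4 (0.979) and Nmi (0.978). Ifih1 encodes a sensor of viral RNA, Igtp and Gbp7 encode interferon-induced GTPases, and Bst2 encodes tetherin. The clusters share libraries, and the interferon cluster sets much of these values: over the other 9 clusters r ran from 0.740 for Rtp4 to 0.9755 for Ifi35.

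Host genotype was then compared within each class. In melanoma-like cells no member passed the threshold, against 0.0319% of 12556 genes called (4 genes), and at an unadjusted p under 0.05 it was 3 of 10 members against 11.3% of genes (edgeR). Psmb9 was 2.66, 2.26, 0.803 and 1.22 CPM in Atf4Δ/Δ hosts and 5.04, 4.04, 1.94 and 10.8 CPM in Atf4WT/WT hosts. The groups overlapped by replicate 3 of the Atf4WT/WT hosts, and the fitted difference (Atf4Δ/Δ minus Atf4WT/WT) was −1.70 ± 0.48 on the log2 scale (95% confidence interval −2.75 to −0.66, adjusted p = 0.275). Psmb8, at 3.76, 2.50, 0.727 and 0.624 against 4.14, 3.39, 2.73 and 13.3 CPM, differed by −1.68 ± 0.61 (adjusted p = 0.364). For Tap1, at 4.45, 5.26, 1.81 and 1.56 against 5.65, 3.39, 4.47 and 14.9 CPM, the difference was −1.15 ± 0.49 (adjusted p = 0.412).

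Replicate 4 of the Atf4WT/WT hosts was the highest of the 8 tumours for these 3 genes. Without it the differences were −1.18, −0.94 and −0.53, and without the interferon cluster they were −0.92, −0.86 and −0.63. All 10 fitted differences were below 0, with a median of −0.44 against −0.005 for all genes. Of all genes tested 48.7% were above 0. Several members draw on the same interferon cluster, so the 10 signs are not independent. Those of H2-K1 (−0.17 ± 0.10), H2-D1 (−0.19 ± 0.18) and B2m (−0.09 ± 0.20) were small. Without the interferon cluster B2m was 0.03 and Nlrc5 0.07. DESeq2 called 0 members by genotype in melanoma-like, CAF-like or TAM-like cells as well. Of the pathway list, 0 of 26 tested genes passed. Among those of smallest p were the interferon regulatory factor Irf8 (−1.90 ± 0.61, adjusted p = 0.315), H2-T22 (−0.29 ± 0.12) and the peptide-trimming enzyme Erap1 (−0.32 ± 0.14).

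In host cells the fitted differences of the heavy and light chains had the opposite sign, and they did not pass either. In CAF-like cells 0 of 6 members tested passed, against 0.0649% of 4620 genes, and 3 of 6 against 6.67% at an unadjusted p under 0.05 (edgeR). H2-D1 was 380, 428, 661 and 377 CPM in Atf4Δ/Δ hosts and 307, 281, 220 and 347 CPM in Atf4WT/WT hosts. The groups differed by 0.59 ± 0.19 (95% confidence interval 0.18 to 0.99, adjusted p = 0.596). B2m, at 620, 743, 1298 and 569 against 632, 404, 340 and 384 CPM, differed by 0.77 ± 0.24 (adjusted p = 0.596).

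H2-K1 in CAF-like cells differed by 0.57 ± 0.23 (adjusted p = 0.686), and Tapbp, at 67.5 to 98.0 CPM in Atf4Δ/Δ hosts and at most 70.3 CPM in Atf4WT/WT hosts, by 0.39 ± 0.20. Psmb8 went the other way (−0.29 ± 0.24) and Psmb10 was at 0.02 ± 0.28. Replicate 3 of the Atf4Δ/Δ hosts, with 10 CAF-like cells, was the highest for all 3 chains, and without it B2m differed by 0.59. Tap1, Tap2, Psmb9 and Nlrc5 had too few UMIs to be tested here. In the pathway list 0 of 17 passed. Among those of smallest p were Psmb6 (−0.35 ± 0.17), H2-T23 (0.64 ± 0.33) and the loading chaperone Pdia3 (−0.24 ± 0.15).

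TAM-like cells had the smallest adjusted p by genotype for the 3 chains, still short of the threshold: 0 of 6 members tested passed, against 0.55% of 2000 genes, and 3 of 6 against 18.2% at an unadjusted p under 0.05 (edgeR). H2-D1 was 1464, 1789, 1376 and 1521 CPM in Atf4Δ/Δ hosts and 709, 1161 and 978 CPM in replicates 1, 3 and 4 of the Atf4WT/WT hosts. The groups differed by 0.75 ± 0.20 (95% confidence interval 0.32 to 1.17, adjusted p = 0.0738). B2m, at 1506, 2140, 1441 and 1958 against 802, 1345 and 1179 CPM, differed by 0.72 ± 0.21 (adjusted p = 0.0972).

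H2-K1 in TAM-like cells, at 850, 1184, 793 and 985 against 432, 710 and 716 CPM, differed by 0.69 ± 0.23 (adjusted p = 0.125). Tapbp (0.55 ± 0.36), Psmb8 (0.34 ± 0.34) and Psmb10 (−0.38 ± 0.46) had intervals that span 0. Melanoma RNA differed between the genotypes in these sums: Dct was 474, 1624, 308 and 1484 CPM in Atf4Δ/Δ hosts and 4301, 2479 and 2280 CPM in Atf4WT/WT hosts. Mlana (125 to 544 against 499 to 856 CPM) and Pmel (112 to 776 against 703 to 1657 CPM) overlapped between them. Without TAM-like cells rich in melanoma markers, H2-D1 differed by 0.41 (adjusted p = 0.432), B2m by 0.37 (adjusted p = 0.510) and H2-K1 by 0.42 (adjusted p = 0.473). Without replicate 3 of the Atf4WT/WT hosts, H2-D1 passed (0.92, adjusted p = 0.0381). In the pathway list 0 of 10 passed, with the smallest p for Psmb6 (0.37 ± 0.21), Psmb5 (−0.28 ± 0.24), Pdia3 (−0.26 ± 0.23) and the chaperone Canx (−0.27 ± 0.27).

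**Figure D4:**
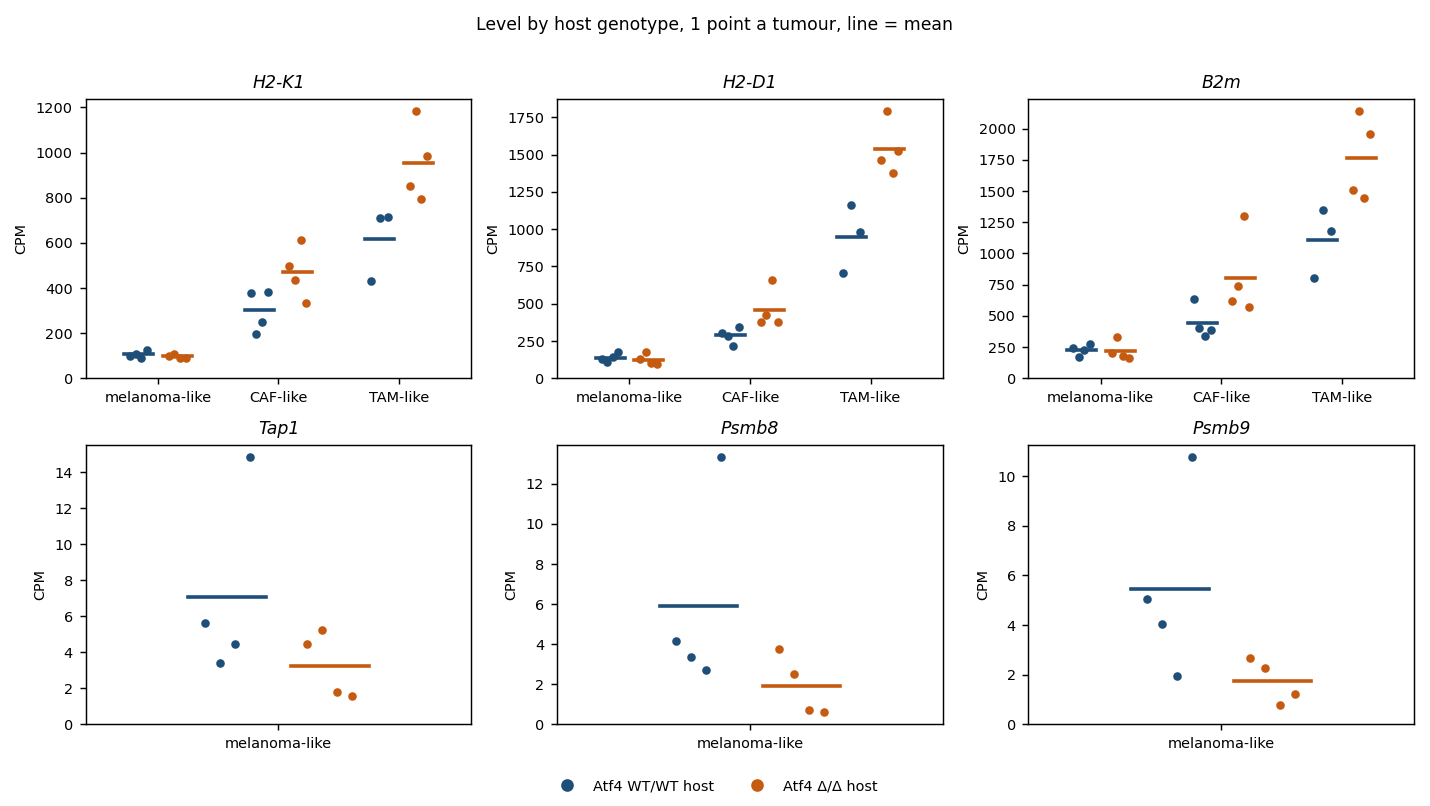
Level (CPM, linear axis from 0) by host genotype, with 1 point for each tumour and a line at the mean: the heavy chains and B2m in melanoma-like, CAF-like and TAM-like cells, and Tap1, Psmb8 and Psmb9 in melanoma-like cells. The H2-D1 mean of Atf4Δ/Δ hosts lies above that of Atf4WT/WT hosts in CAF-like and TAM-like cells. Replicate 4 of the Atf4WT/WT hosts is the top point of the lower panels, with 13.3 CPM of Psmb8.

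The fitted signs of the heavy and light chains differed between melanoma-like and CAF-like cells. The difference of the genotype effects was itself among the planned tests, over both classes of the 8 tumours. It passed for 2 of 10 members, against 0.405% of 13322 genes (54 genes), and at an unadjusted p under 0.05 it was 7 of 10 against 6.03% (edgeR). These counts include Tap1, Tap2, Psmb9 and Nlrc5, which had too few UMIs in CAF-like cells to be tested there. Among the 4620 genes that pass the filter in CAF-like sums, 0 of 6 members and 0 genes passed. At an unadjusted p under 0.05 it was then 4 members and 297 genes (edgeR). B2m differed by 0.83 ± 0.19 between CAF-like and melanoma-like cells (95% confidence interval 0.45 to 1.22, adjusted p = 0.0151) and H2-D1 by 0.75 ± 0.19 (0.37 to 1.13, adjusted p = 0.0440). H2-K1 (0.68 ± 0.19, adjusted p = 0.0967), Tap1 (1.60 ± 0.49, adjusted p = 0.190), Psmb8 (1.33 ± 0.42, adjusted p = 0.266) and Tapbp (0.78 ± 0.30, adjusted p = 0.532) did not pass. No fold is given for Nlrc5, which had no UMI in CAF-like cells of any Atf4WT/WT host, where 3 counts would be 8.86 to 13.2 CPM.

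These 2 calls rested on the settings and on single tumours. Neither passed without the interferon cluster (B2m 0.72, adjusted p = 0.131; H2-D1 0.66, adjusted p = 0.217), with DESeq2, or when only genes detected well in CAF-like cells were tested (B2m 0.84, adjusted p = 0.616). B2m lost its call without replicate 1 (0.86, adjusted p = 0.119) or 4 (0.78, adjusted p = 0.241) of the Atf4Δ/Δ hosts and without replicate 3 (0.72, adjusted p = 0.194) or 4 (0.68, adjusted p = 0.245) of the Atf4WT/WT hosts. H2-D1 lost it without the same tumours and without replicate 2 of the Atf4WT/WT hosts (0.83, adjusted p = 0.0501). In turn Psmb8 passed without replicate 1 or 2 of the Atf4Δ/Δ hosts and without replicate 1 or 3 of the Atf4WT/WT hosts (1.92, 1.59, 1.60 and 1.59). H2-K1 passed without replicate 3 of the Atf4Δ/Δ hosts (0.69, adjusted p = 0.0228) or replicate 1 of the Atf4WT/WT hosts (0.89, adjusted p = 0.0170), and Tap1 without replicate 2 of the Atf4Δ/Δ hosts (2.14, adjusted p = 0.00342). None of 29 pathway genes passed this test. The same difference between TAM-like and melanoma-like cells was not tested.

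**Figure D5:**
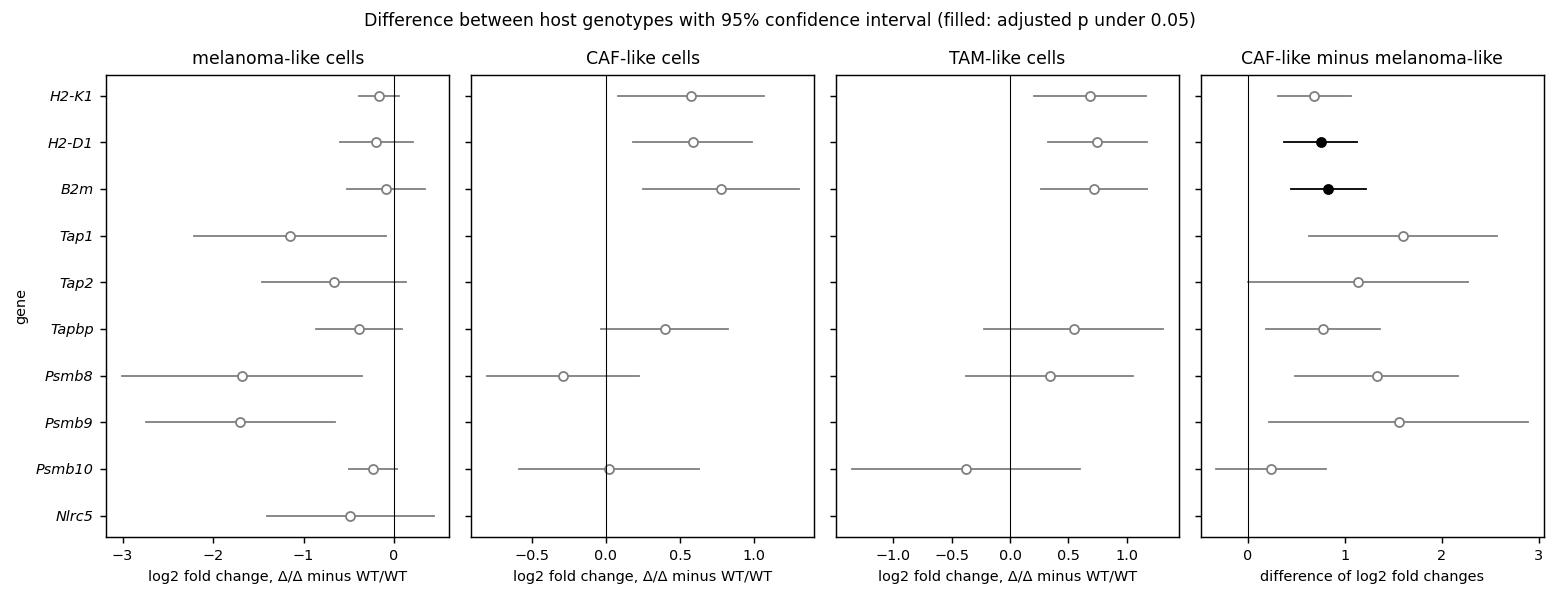
Fitted log2 difference between Atf4Δ/Δ and Atf4WT/WT hosts for each gene with its 95% confidence interval in melanoma-like, CAF-like and TAM-like cells, and in the last panel the CAF-like minus melanoma-like difference of these; the horizontal scales differ between panels. Filled points have an adjusted p under 0.05, which only B2m (0.83) and H2-D1 (0.75) in the last panel reach; genes too low to test are left blank, and Nlrc5 is not drawn in the last panel.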

How the data were processed

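The authors aligned droplet (10x) reads to GRCm38 with Cell Ranger 3.1.0 and used Seurat 3.2.1, per the submitters' processing notes; the deposited unit is whole UMI counts of each gene in each barcode, 1 matrix a tumour, without normalization. Of 41925 barcodes, 28411 had 200 to 5000 genes and at most 7.5% mitochondrial UMIs. Doublets were not called. The 8 libraries were integrated by genotype and clustered with Seurat 5.3.0 after the study's methods (2000 variable genes less the 8 members among them, 20 components, resolution 0.6, the one nearest to 16 clusters); a cluster of 240 cells with a median of 7.03% mitochondrial UMIs was removed, and immune cells were clustered again. Classes were named from marker lists. The study tested cells with a Wilcoxon test; here UMIs were summed per tumour and class (at least 10 cells) and tested with edgeR 4.0.16 (filterByExpr, TMM, quasi-likelihood, Benjamini-Hochberg over all genes), with DESeq2 1.42.0 as an alternative. CPM divides by the UMIs of the class. The edgeR steps were tested on simulated data. Replicates are separate mice; depth is given in the report. Intervals cover 95%. Named genes were all members, fixed pathway genes, the 4 of smallest p per class and the 10 most alike over melanoma-like clusters; some of these are not reported here. The members and lists were chosen with earlier results of these data known.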

Additional observations from a re-analysis of the deposited data

Results flagged for a closer look

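In 82 sets of 4 tumours (1 gene, 1 class, 1 genotype), the highest or lowest tumour was set against the rest by Dixon's test, which flags about 1 in 20 by chance; 6 stood apart. In melanoma-like cells, replicate 4 of the Atf4WT/WT hosts had 13.3 CPM of Psmb8 (324 UMIs) against 2.73 to 4.14 in the other 3, and 53.7 CPM of Psmb10 (1306 UMIs) against 35.6 to 36.7. This tumour also had the largest interferon cluster, 8.84% of its melanoma-like cells.

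Psmb8 in CAF-like cells of replicate 3 of the Atf4Δ/Δ hosts was 122 CPM against 49.5 to 55.6, from 5 UMIs in 10 cells. B2m in the immune cells led by Arg1 and Mmp12 was 2922 CPM in replicate 3 of the Atf4WT/WT hosts against 2002 to 2140, from 45 UMIs. In the immune cells led by Chil3 and Ly6c2, replicate 4 of the Atf4WT/WT hosts had 62.1 CPM of Tap2 from 5 UMIs and 24.9 CPM of Nlrc5 from 2 UMIs, where the other 3 had none. With no UMI in the other 3, the test flags any count. They also held 11 to 15 of these cells against 79, and 3 counts there would be 165 to 227 CPM. These flags therefore cannot show a difference in level.

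The genotype effect differed between CAF-like and melanoma-like cells by a test of that difference for B2m (0.83, log2) and H2-D1 (0.75), with adjusted p = 0.0151 and 0.0440 (edgeR). Neither passed with DESeq2, without the interferon cluster, among genes that pass the filter in CAF-like sums, or without replicate 1 or 4 of the Atf4Δ/Δ hosts or 3 or 4 of the Atf4WT/WT hosts.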

How the results depend on the processing

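Every fitted sign of B2m, H2-D1 and H2-K1 in CAF-like and TAM-like cells, and of the class comparisons of all members but Nlrc5, held in the alternatives run, whereas counts of called genes moved with the settings. Genes called by genotype in melanoma-like cells (4) were 120 with DESeq2, 9 with library size scaling, 46 without the filter and 0 with the replicate block. In CAF-like cells (3) they were 105 without the filter, 1 with at least 20 cells a tumour, and 0 with the replicate block, with sex as a factor or without cells rich in melanoma markers. In TAM-like cells (11) they were 31 with DESeq2, 69 without the filter, 107 with the replicate block, 6 with sex, 2 with at most 5% mitochondrial UMIs and 1 without melanoma-rich cells. Genes that differed between T/NK-like and melanoma-like cells (2186) were 897 with DESeq2, 959 with library size scaling and 598, with 6 members, at 5% mitochondrial UMIs. The 2186 were mostly lower in T/NK-like cells, whereas the 897 and the 959 were mostly higher. The CAF-like minus melanoma-like test (54) gave 2 with DESeq2, 84 without melanoma-rich cells and 0 among genes that pass the filter in CAF-like sums. Of its 2 member calls, 1 was left with library size scaling or with the members in the clustering, and 0 with DESeq2, without the interferon cluster or among CAF-like genes.

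Leaving out 1 tumour gave 0 to 21 genes by genotype in melanoma-like, 0 to 1 in CAF-like and 0 to 59 in TAM-like cells (0 to 1 members), 6505 to 7408, 3272 to 4487 and 1354 to 1602 for the CAF-like, TAM-like and T/NK-like classes (9 to 10 members in the latter pair), and 25 to 97 for the CAF-like minus melanoma-like test (0 to 4 members). Signs turned for small differences. By genotype, B2m (0.029) and Nlrc5 (0.067) in melanoma-like cells turned without the interferon cluster, Psmb8 in TAM-like cells (−0.13) without melanoma-rich cells, and Psmb10 in CAF-like cells with DESeq2 (−0.000234), library size scaling (−0.014), the replicate block (−0.055), 5% mitochondrial UMIs (−0.064) and at least 20 cells (−0.0088). When 1 tumour was left out, Nlrc5 in CAF-like against melanoma-like cells ran from −0.33 to 0.67, and by genotype Psmb10 ran from −0.16 to 0.19 in CAF-like and −0.82 to 0.17 in TAM-like cells, B2m from −0.34 to 0.027, Irf1 from −0.56 to 0.018 and Psmb7 from −0.013 to 0.042 in melanoma-like cells, and Canx from −0.47 to 0.024 in TAM-like cells. Psmb6 in T/NK-like against melanoma-like cells was 0.092 with library size scaling. The causes were not tested.

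Replicate numbers of the genotypes share no stated origin, and same-numbered tumours deviated with correlations of −0.0723, −0.367, −0.145 and −0.265, so the replicate block pairs tumours by number only. It called 0 members by genotype in melanoma-like, CAF-like or TAM-like cells. The alternatives for dendritic-like cells were not run, since no tumour held 10 of them. Few cells and UMIs limit Tap1, Tap2, Psmb9 and Nlrc5 in CAF-like, TAM-like and T/NK-like cells most.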
